A study of Homo sapiens with 12 samples.

Results

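Transcript levels of 10 genes of the activin and TGF-beta pathway were examined in the established human melanoma line SK-mel147, out of 18417 genes measured on 12 Affymetrix Human Gene 1.0 ST arrays. The genes are FST, INHBA, TGFB1, TGFB2, TGFBR2, SMAD7, TGFBI, ID1, ID2 and ID3. They were listed by pathway, and the set was chosen by the log2 difference of FST between the H2AZ2 hairpins and the controls, so that contrast is given below as a description, with no test of these 10 genes. Lentiviral short hairpin RNAs were delivered to the cells, and each was measured on 2 arrays. H2AZ2, which encodes the histone variant isoform H2A.Z.2, was targeted by sh_37 or sh_38; H2AZ1, which encodes H2A.Z.1, by sh_83 or sh_84. The controls were a scrambled hairpin and one against luciferase. H2A.Z takes the place of H2A in a subset of nucleosomes, often at promoters. The labels do not say that replicates came from separate infections or cultures, so a p-value here reflects only how far these arrays scatter, which could be technical. All groups share the line and the lentiviral infection, and no time after infection was used here.

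Activins and TGF-betas are secreted dimers that bind pairs of serine/threonine kinase receptors on the cell surface. The active receptors phosphorylate SMAD proteins, which enter the nucleus with SMAD4 and switch target genes, whereas bone morphogenetic proteins (BMPs), of the same family, act through other SMADs and typically induce the ID genes. Follistatin, the product of FST, binds activin and keeps it from its receptor; SMAD7 blocks the receptors from inside the cell. In melanoma this pathway is known for restraining proliferation early and for promoting invasive, less pigmented states later.

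The levels of the targeted genes limit what each group stands for. With sh_37, H2AZ2 was at 46.1% of control, and with sh_38 at 65.4%; sh_83 left H2AZ1 at 19.3%. The arrays labelled sh_84 had H2AZ1 at 92.0% of it (log2 difference -0.12, SE 0.09, limma adjusted p = 0.859), and for replicate 2 the labels name different hairpins. Of 8 melanocyte lineage markers measured, SOX10, MITF and PAX3 were above the median gene in the controls, while the pigment genes PMEL, MLANA, TYR and TYRP1 lay between 4.76 and 5.72 against a median of 7.69. Probe sets differ in affinity and no detection call was analysed here, so this does not show absence. Over all probe sets only the replicates of sh_37 and of sh_83 were most alike to each other; scrambled replicate 1 was more alike to sh_84 replicate 1 (r = 0.995) than to its own replicate (r = 0.987).

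The upstream sequences of the 4 genes that carry the results are shown first: FST, whose level set the choice, and TGFB2, TGFBR2 and ID3, which differed between the H2AZ2 hairpins. Each is the 250 bases before the gene's outermost start in RefSeq (GRCh38.p14), on the gene's strand, 5′ to 3′, with capitals at the SMAD-binding letters CAGAC (or GTCTG, the same letters on the other strand). The windows are chr5:53480379-53480628 (plus strand) for FST, chr1:218345086-218345335 (plus) for TGFB2, chr3:30606106-30606355 (plus) for TGFBR2 and chr1:23559502-23559751 (minus) for ID3.
FST: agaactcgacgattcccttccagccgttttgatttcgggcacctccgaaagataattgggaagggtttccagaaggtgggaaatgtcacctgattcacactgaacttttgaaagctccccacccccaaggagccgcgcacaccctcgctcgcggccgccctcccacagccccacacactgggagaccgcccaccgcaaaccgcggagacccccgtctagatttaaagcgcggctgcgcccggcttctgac
TGFB2: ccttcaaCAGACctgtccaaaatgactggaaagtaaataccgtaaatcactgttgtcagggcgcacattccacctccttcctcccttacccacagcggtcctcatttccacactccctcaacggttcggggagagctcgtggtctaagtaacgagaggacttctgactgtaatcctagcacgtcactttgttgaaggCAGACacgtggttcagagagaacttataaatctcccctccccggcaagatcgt
TGFBR2: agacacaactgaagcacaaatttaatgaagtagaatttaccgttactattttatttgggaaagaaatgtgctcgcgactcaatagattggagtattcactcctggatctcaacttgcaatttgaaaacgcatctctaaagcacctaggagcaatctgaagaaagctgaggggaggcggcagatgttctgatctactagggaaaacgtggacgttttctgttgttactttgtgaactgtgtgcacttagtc
ID3: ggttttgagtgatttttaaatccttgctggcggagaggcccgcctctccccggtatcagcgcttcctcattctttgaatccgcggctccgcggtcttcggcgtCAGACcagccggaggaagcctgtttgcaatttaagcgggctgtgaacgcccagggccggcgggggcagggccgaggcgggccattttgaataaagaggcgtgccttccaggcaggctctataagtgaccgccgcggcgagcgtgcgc

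The TGFB2 window holds CAGAC at positions -243 and -53 relative to the start, and the ID3 window at -147. All 10 genes matched the promoter table, and 3 of their windows hold CAGAC on either strand (TGFB2, SMAD7 and ID3), while 38% of all 35116 windows of this length do. The palindrome GTCTAGAC, which shares the letters AGAC with the shorter motif, was in none of the 10 and in 0.182% of all windows. The letters GGCGCC, bound by SMADs of the BMP branch, were in the TGFBI window alone among the 10 and in 16.4% of all windows. These matches describe the letters and show no binding. Only the window at the outermost start of each of the 10 genes was searched. SMAD7 has 3 listed windows and TGFBR2 has 2, so letters at their other starts would be missed. The 35116 windows include every listed start.

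FST, the activin antagonist, was lower with both H2AZ2 hairpins than in any control array. Its log2 expression was 9.21 and 8.93 with scrambled and 8.65 and 9.03 with luciferase. With sh_37 it was 7.67 and 7.48, and with sh_38 it was 8.17 and 7.97. The difference from control was -1.38 (SE 0.14) with sh_37 and -0.88 (SE 0.14) with sh_38, that is 38.5% and 54.2% of the control level. Over both hairpins it was -1.13 (SE 0.23, n = 4 against 4). These values chose the gene and carry no test. Lying above or below every control array was common. It held for 31.1% of all genes with sh_37, 22.3% with sh_38, 17.8% with sh_83 and 14.3% with sh_84. Over both H2AZ2 hairpins it held for 11.6%, and scrambled lay apart from luciferase for 30.5%. These shares apply to each such statement below. In cultured cells measured in bulk, fewer cells that express a gene and less of its RNA per cell cannot be told apart.

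With sh_83, the hairpin that lowered H2AZ1, FST was also below every control array, at 7.99 and 8.34. The arrays labelled sh_84, at 9.15 and 9.01, lay within the control range. FST fell with sh_83 against the controls, to 57.9% of their level (log2 difference -0.79, SE 0.14, limma adjusted p = 0.0394), a comparison that shares its 4 control arrays with the one that chose FST. This call was close to the threshold. It was lost without replicate 1 of scrambled (-0.72), replicate 2 of luciferase (-0.69), either replicate of sh_83 (-0.61 and -0.96) or, through the estimate of spread, either replicate of sh_37 or of sh_84 (-0.79), and after centring on array medians (-0.76), and with a single control hairpin (-0.90 against scrambled, adjusted p = 0.0588, and -0.67 against luciferase, adjusted p = 0.12). Over the alternatives the adjusted p ranged from 0.00952 to 0.521.

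The difference between sh_83 and sh_84 uses no array of the contrast that chose the gene, although its SE and p rest on a spread shared by all 12 arrays (adjusted p from 0.0212 to 0.048 without 1 array of another hairpin). FST was lower with sh_83 by a log2 difference of -0.91 (SE 0.16, 95% confidence interval -1.27 to -0.55, limma adjusted p = 0.0255), 53.1% of the level in the arrays labelled sh_84. Without 1 of these 4 arrays the difference lay between -0.74 and -1.09 and the call was lost each time (adjusted p from 0.0587 to 0.311). Of 7 fibroblast markers LUM was called higher with sh_83 than with sh_84, and the mean log2 level of the 7 was 6.18 to 6.19 against 5.911 to 5.997, without overlap; the part of these markers in the FST difference was not tested. FST was the only called gene of the 10 here, and 1.19% of all genes were called. From high to low the hairpins ordered as sh_84, scrambled, luciferase, sh_83, sh_38 and sh_37. The first 3 overlapped in their arrays, as did sh_83 and sh_38. Luciferase lay apart from sh_83, and sh_38 from sh_37. Between sh_37 and sh_38 the arrays lay apart for 45.9% of all genes. The difference of FST between them was -0.49 (SE 0.16) and did not pass (limma adjusted p = 0.117).

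**Figure D1:**
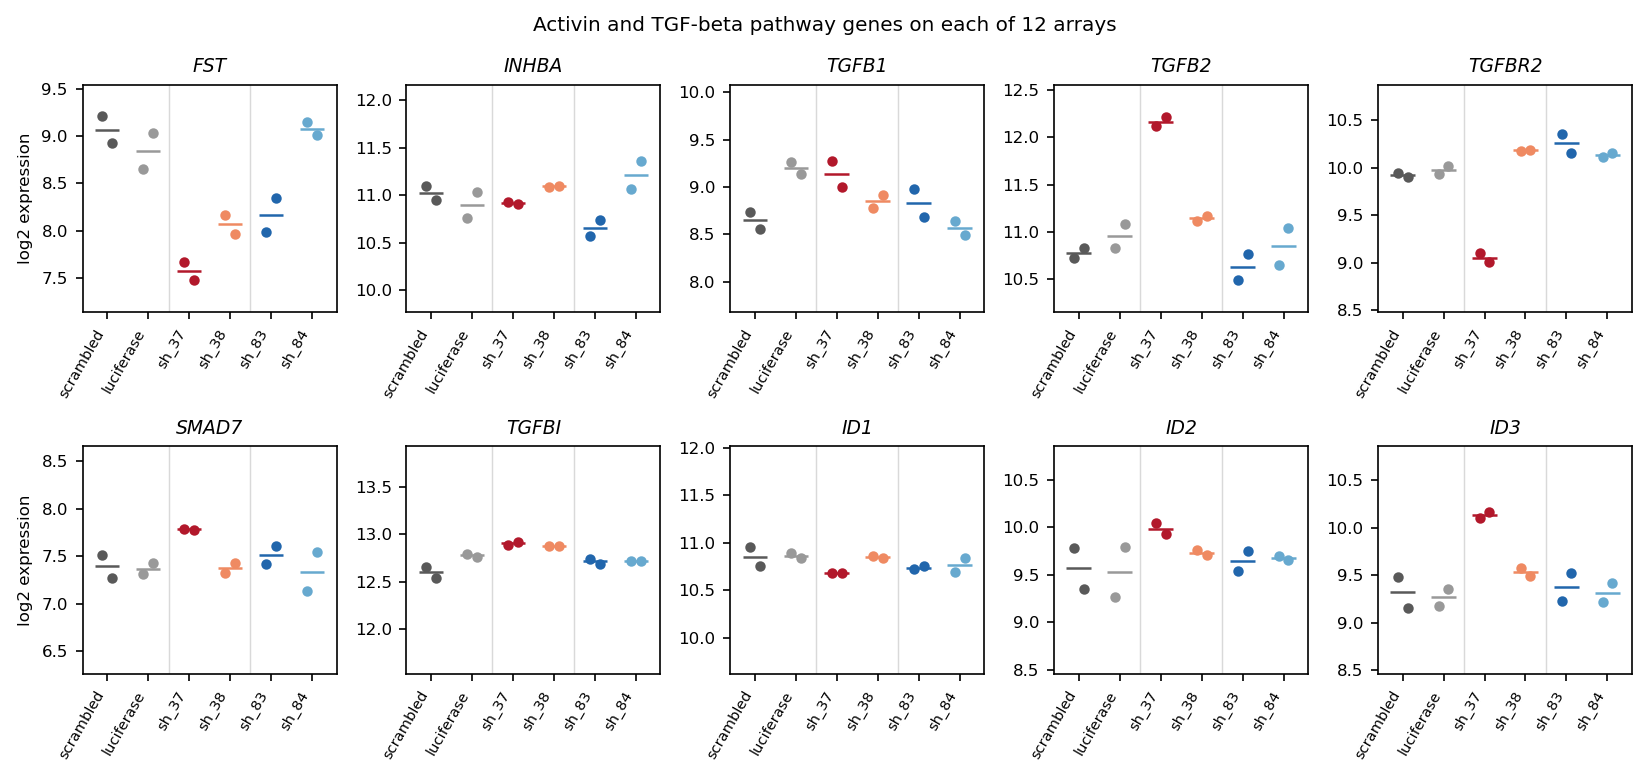
Log2 expression (y axis) of the 10 pathway genes on each of the 12 arrays, by hairpin (x axis); points are arrays, lines the means of 2 arrays, and every panel spans at least 2.4 log2 units. FST is low with sh_37, sh_38 and sh_83, while TGFB2 (12.12 and 12.21), TGFBR2 (9.10 and 9.003) and ID3 (10.10 and 10.16) stand apart with sh_37.

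Among the ligands, TGFB2 was much higher with sh_37 than with any other hairpin. It encodes a TGF-beta that mesenchymal and neural crest derived cells commonly make. It measured 12.12 and 12.21 with sh_37 and 11.12 and 11.17 with sh_38, against 10.72 and 10.84 with scrambled and 10.83 and 11.09 with luciferase. Both H2AZ2 hairpins thus lay above all control arrays, by 1.30 (SE 0.13) and 0.28 (SE 0.13), but to unequal extents. The difference between the hairpins, which is independent of their mean, was 1.02 on the log2 scale (SE 0.14, limma adjusted p = 0.00201), or 2.03-fold. With sh_83 (10.50 and 10.77) and sh_84 (10.65 and 11.05) the arrays overlapped the controls.

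INHBA, which encodes the subunit of activin A that follistatin binds, did not follow FST with the H2AZ2 hairpins. It was 10.93 and 10.90 with sh_37 and 11.09 on both arrays of sh_38, within the control range of 10.76 to 11.10. With sh_83 it was 10.57 and 10.74, below every control array, and with sh_84 11.07 and 11.36. The difference of sh_83 from control was -0.31 (SE 0.11, 95% confidence interval -0.55 to -0.07) and did not pass (limma adjusted p = 0.329). Between sh_83 and sh_84 it was -0.56 (SE 0.13, limma adjusted p = 0.0663), and it passed under 4 of 18 alternatives.

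TGFB1, the most widely expressed TGF-beta ligand, differed most between the control hairpins. It was 8.74 and 8.56 with scrambled and 9.27 and 9.13 with luciferase, which do not overlap (log2 difference -0.55, SE 0.13, limma adjusted p = 0.601). The H2AZ2 arrays lay between 8.78 and 9.27 and the H2AZ1 arrays between 8.49 and 8.98. Every knockdown hairpin had at least 1 array within the control range of 8.56 to 9.27, so none was apart from the controls.

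TGFBR2, the type II receptor for TGF-beta ligands, lay on opposite sides of the controls with the H2AZ2 hairpins. It was 9.10 and 9.003 with sh_37 and 10.18 and 10.19 with sh_38, while the 4 control arrays lay closely together between 9.91 and 10.02. The sh_37 arrays were thus below all controls (-0.90, SE 0.08) and the sh_38 arrays above them (0.23, SE 0.08). The difference between the hairpins was -1.13 (SE 0.09, limma adjusted p = 9.12e-05), so that the level with sh_37 was 45.7% of that with sh_38. A mean over both hairpins hides this pattern: it was -0.33 (SE 0.23). With H2AZ1 hairpins all 4 arrays, from 10.11 to 10.35, lay above the 4 controls; the groups were apart in either direction for 3.33% of all genes. The difference was 0.30 (SE 0.08, limma adjusted p = 0.151) with sh_83 and 0.18 (SE 0.08, adjusted p = 0.572) with sh_84, so neither passed.

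SMAD7, an inhibitory SMAD that is itself induced by the pathway, was highest with sh_37. Both arrays of that hairpin read 7.79 and 7.78, above the control range of 7.27 to 7.52, whereas sh_38 (7.33 and 7.43) lay within it. The difference between the hairpins was 0.41 (SE 0.14, 95% confidence interval 0.10 to 0.71) and did not pass (limma adjusted p = 0.127). The arrays labelled sh_84 spread from 7.14 to 7.54, the widest gap between replicates for this gene, so smaller differences could not be resolved.

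TGFBI, a secreted matrix protein induced by TGF-beta, varied little. Its 4 H2AZ2 arrays lay between 12.87 and 12.92 and the controls between 12.54 and 12.80. Those groups do not overlap, as for 11.6% of all genes. The difference over both hairpins was only 0.20 (SE 0.07). That is about the size of the difference between the control hairpins (-0.18, scrambled minus luciferase, SE 0.08). The H2AZ1 arrays, from 12.69 to 12.74, overlapped the controls.

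The ID genes encode helix-loop-helix proteins without a DNA-binding region, which hold back differentiation factors. They did not move together. ID3 was 10.10 and 10.16 with sh_37 and 9.57 and 9.496 with sh_38, against controls from 9.16 to 9.48. Its difference from control was 0.84 (SE 0.12) with sh_37 and 0.24 (SE 0.12) with sh_38. Between the hairpins ID3 was higher with sh_37 by 0.60 (SE 0.14, limma adjusted p = 0.0248), a call lost without any 1 of the 4 arrays compared (0.56 to 0.64, adjusted p from 0.0679 to 0.155).

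ID2 was 10.04 and 9.93 with sh_37, above the controls, which themselves spread from 9.27 to 9.79; sh_38, at 9.76 and 9.70, overlapped them. Its difference between the H2AZ2 hairpins was 0.25 (SE 0.18, limma adjusted p = 0.537). ID1 lay the other way, at 10.69 on both sh_37 arrays against a lowest control of 10.75 (-0.17, SE 0.08). For ID1 and ID2 the range of the 6 hairpin means was smaller than the widest gap between replicates (0.88 and 0.86 of that gap). It was 6.28 times the gap for TGFBR2, 3.998 for FST, 3.88 for TGFB2, 2.77 for TGFBI and 2.68 for ID3. For TGFB1 it was 2.125, for INHBA 1.905 and for SMAD7 1.097. The value of FST includes the H2AZ2 arrays that chose the gene, so it is a description only.

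**Figure D2:**
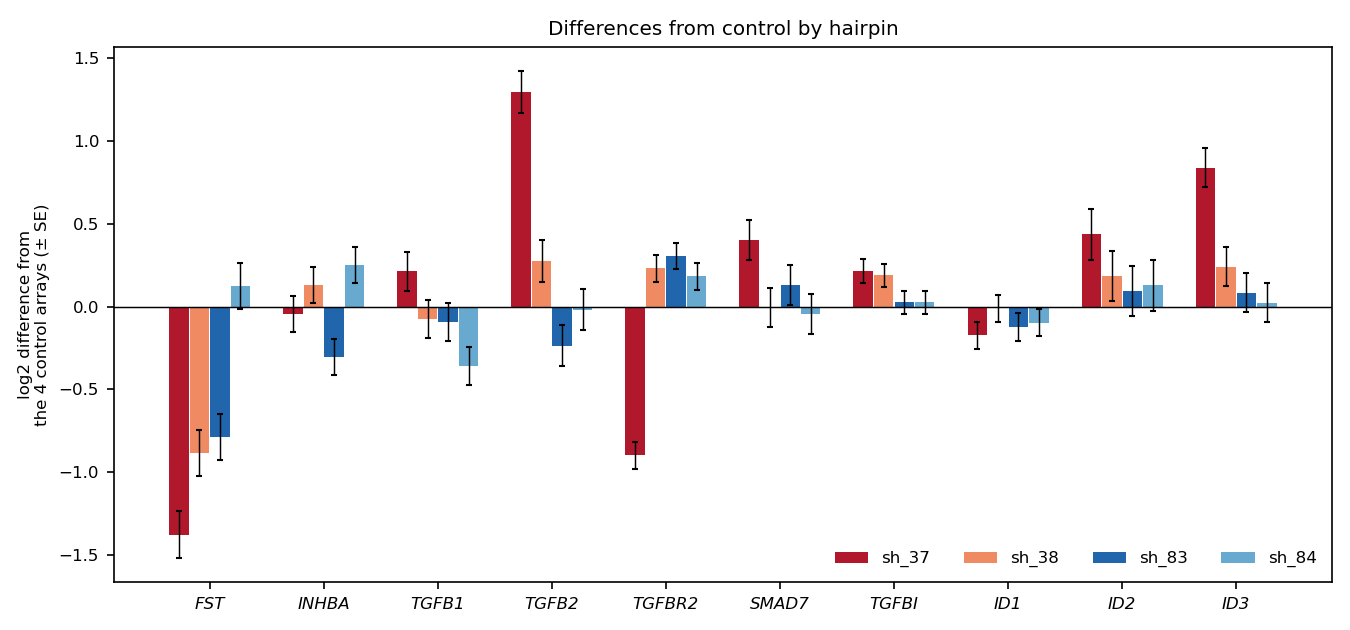
Log2 difference of each gene from the mean of the 4 control arrays (y axis), by gene (x axis) and hairpin (colour); bars are estimates from 2 arrays each and whiskers the SE of the fit by hairpin. TGFBR2 stands at -0.90 with sh_37 and at 0.23 with sh_38, and all 4 hairpins share the same controls.

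Between sh_37 and sh_38, 2 genes were higher with sh_37 (TGFB2 and ID3) and 1 lower (TGFBR2), and 6.27% of all genes were called. All 10 had arrays that do not overlap between these hairpins, as did 45.9% of all genes. H2AZ2 itself was lower with sh_37 than with sh_38 (-0.50, SE 0.09, limma adjusted p = 0.00763). Of 7 fibroblast markers, 2 were called higher than control with sh_37 (COL1A1 and LUM, median difference of the 7 0.24) and 1 with sh_38 (LUM, median 0.26). Over both H2AZ2 hairpins together 0 of the 7 were called (median 0.23). Between sh_37 and sh_38 LUM was called higher with sh_37. The mean log2 level of the 7 was 6.45 on both sh_37 arrays, 6.23 to 6.33 with sh_38 and 5.99 to 6.13 in the controls. In the controls 2 of the 7 fibroblast markers, LUM (8.81) and COL1A1 (7.77), lay above the median gene (7.69). DCN was the lowest of the 7 at 3.46, with POSTN at 3.64. Of 8 melanocyte lineage markers, PAX3 was called lower with either H2AZ2 hairpin against control, and SOX10 with sh_37. The others were not called. The median difference of the 8 was -0.09 with sh_37, 0.015 with sh_38 and 0.002 over both hairpins. The part of these markers in the differences was not tested.

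Against control, FST alone of the 10 was called with sh_83 by limma, beside 0.641% of all genes. FST, INHBA and TGFBR2 were at an unadjusted p under 0.05 there, as were 1878 of all 18417 genes. None of the 10 was called by limma for sh_84 (0.353% of all genes), with INHBA, TGFB1 and TGFBR2 at an unadjusted p under 0.05. The same held for both H2AZ1 hairpins together (0% of all genes), with 0 of the 10 at an unadjusted p under 0.05. That comparison joins sh_83 with arrays labelled sh_84, whose H2AZ1 was at 92.0% of control. H2AZ1 itself was not called in it (-1.25, SE 0.43), so it can hardly show an effect of H2AZ1 knockdown. Scrambled and luciferase differed in no gene by limma (0% of all genes), with TGFB1 and TGFBI at an unadjusted p under 0.05. The median difference of the 10 was 0.14 between sh_37 and sh_38, against -0.03 for all genes, and -0.03 with sh_83, against 0.01.

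**Figure D3:**
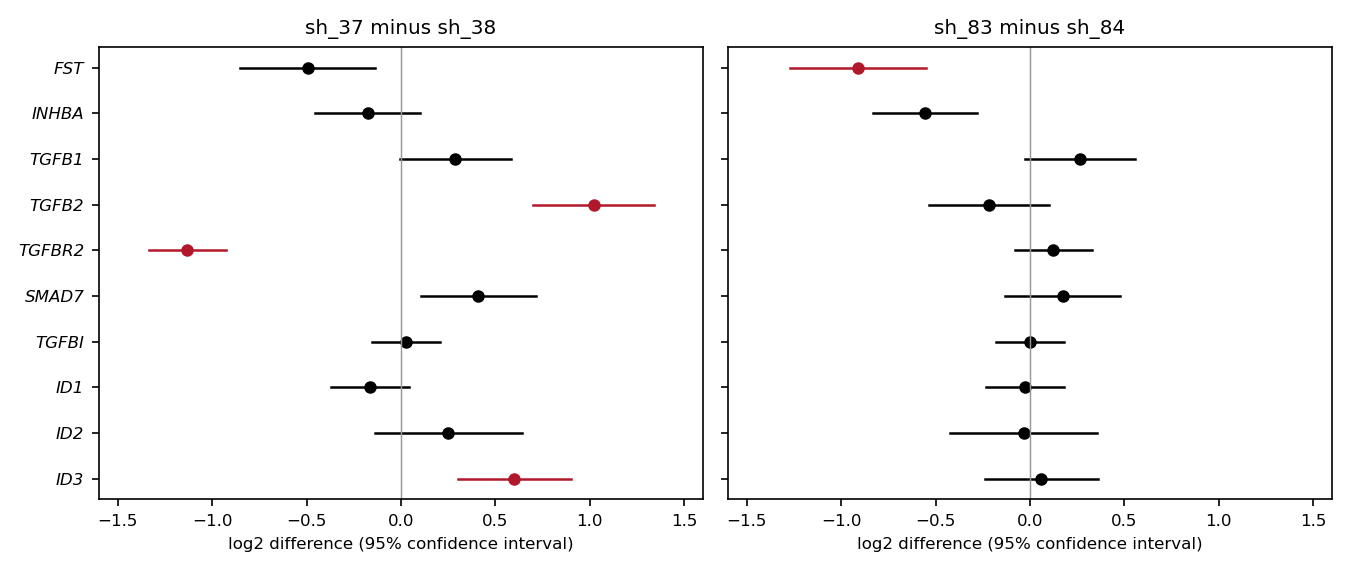
Log2 difference (x axis) between the hairpins of a target for each gene (y axis), with its 95% confidence interval from the fit by hairpin, 2 arrays against 2; red marks an adjusted p under 0.05. TGFB2 (1.02), TGFBR2 (-1.13) and ID3 (0.60) are called between the H2AZ2 hairpins and FST (-0.91) between the H2AZ1 hairpins.

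The rest of the pathway was taken from a list of 127 further genes in 10 roles, of which 119 were measured. After H2AZ2 knockdown (4 against 4 arrays) 4 of the 119 rose and 2 fell, 5.04% against 3.31% of all genes, with a median difference of 0.05 against 0.03. FSTL3, a secreted relative of follistatin that also binds activin, rose while FST lay lower. It measured 8.66 and 8.82 with scrambled and 8.82 and 8.61 with luciferase, 9.99 and 9.96 with sh_37, and 9.35 and 9.54 with sh_38. The rise was 0.98 (SE 0.14, limma adjusted p = 0.00482), or 1.24 (SE 0.10) with sh_37 and 0.72 (SE 0.10) with sh_38, and the hairpins differed by 0.53 (SE 0.12, adjusted p = 0.0234). With sh_83, at 8.89 and 9.005, FSTL3 was above all controls by 0.22 (SE 0.10, adjusted p = 0.502).

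Among ligands, 1 of 15 BMP genes rose, BMP2 (0.36, SE 0.08, limma adjusted p = 0.034), and none of 13 genes of the activin, nodal and TGF-beta ligands was among the 6. Of 12 genes of latency and activation ITGAV rose, the integrin subunit that helps free TGF-beta from its latent form (0.39, SE 0.09, limma adjusted p = 0.0401). ITGAV also lay above every control array (9.90 to 10.06) with both H2AZ1 hairpins, by 0.15 (SE 0.08) with sh_83 and 0.30 (SE 0.08) with sh_84, beside 0.25 (SE 0.08) with sh_38; none of these 3 passed (limma adjusted p = 0.587, 0.228 and 0.122). Of 16 SMAD regulators NEDD4L fell, a ubiquitin ligase that acts on SMADs (-0.51, SE 0.09, limma adjusted p = 0.0105). Of 18 target genes of TGF-beta and activin PDGFB, a growth factor, rose (0.64, SE 0.15, adjusted p = 0.0315) and TGM2, a transglutaminase, fell (-0.69, SE 0.08, adjusted p = 0.00215, limma). TGM2 was 10.87 and 10.66 with sh_37 and 10.86 on both arrays of sh_38, against controls from 11.48 to 11.53. The 10 receptors, 7 co-receptors, 6 SMADs and 10 BMP target genes gave none of the 6 (limma, with 20 of the 119 at an unadjusted p under 0.05). Of 21 alternatives, the call was lost in 9 for ITGAV, 8 for BMP2 and 5 for PDGFB. It was lost in 3 for NEDD4L, 1 for FSTL3 and 0 for TGM2. With sh_38 by itself, BMP2 and PDGFB were not called against control. The count of 6 fell to 2 without replicate 1 of scrambled and to 3 without replicate 2 of luciferase or replicate 2 of sh_37; it was 1 (TGM2) against scrambled alone and 2 (FSTL3 and TGM2) against luciferase alone. The count over all genes, 609, moved with it: leaving out scrambled replicate 1 gave 66 calls, luciferase replicate 2 gave 235, sh_37 replicate 2 gave 302 and luciferase replicate 1 gave 329, and it was 14 against scrambled alone and 43 against luciferase alone.

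By hairpin, 21 of the 119 genes were called with sh_37 (16 higher, 5 lower; 17.6% against 12.9% of all genes) and 11 with sh_38 (2 higher, 9 lower; 9.24% against 4.6%). The lists share their controls. FSTL3, NEDD4L and TGM2 were in both with the same sign, which is 14.3% of the first list and 27.3% of the second. FN1 and CHRDL1, singled out after their values were seen, were in both with opposite signs. FN1, the matrix protein fibronectin, was 12.51 and 12.48 with sh_37, 11.27 and 11.10 with sh_38, and 11.54 to 11.78 in the controls. It rose with sh_37 (0.83, SE 0.08, limma adjusted p = 0.000115) and fell with sh_38 (-0.48, SE 0.08, adjusted p = 0.00846). With sh_84, FN1 was also below every control array, at 11.33 and 11.28 (-0.36, SE 0.08, limma adjusted p = 0.117, not passed). CHRDL1, a BMP antagonist, rose with sh_37 (0.52, SE 0.10, limma adjusted p = 0.00683) and fell with sh_38 (-0.79, SE 0.10, adjusted p = 0.00207). The fall of FN1 with sh_38 was lost without replicate 2 of sh_38 (-0.40) and against scrambled alone (-0.41), and the rise of CHRDL1 without replicate 2 of sh_37 (0.44). Without that array 12 genes were called with sh_37, and without replicate 2 of sh_38 only CHRDL1 and TGM2 with sh_38.

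Genes at different steps of the pathway were called with sh_37 or with sh_38; those named here were chosen after their values were seen. With sh_37 the higher genes included BAMBI, a decoy receptor (0.82, SE 0.11), FBN1, a fibrillin that anchors latent TGF-beta (0.98, SE 0.12), and ATOH8, a BMP target (0.91, SE 0.10). The lower genes were NOX4, IL11, TGM2, NEDD4L and RGMB. With sh_38 the receptor TGFBR1 (-0.56, SE 0.09) and SMAD5, a SMAD of the BMP branch (-0.66, SE 0.11), were among those that fell. The difference between the hairpins was tested directly for each gene: it was called for BAMBI, FBN1, ATOH8 and SMAD5 and not for TGFBR1 (0.33, SE 0.11, limma adjusted p = 0.105). In all 20 of the 119 differed between sh_37 and sh_38 (16.8% against 6.27% of all genes).

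With sh_83, 1 of the 119 genes passed against control, 0.84% beside 0.641% of all genes: HES1, a repressor induced by BMP and Notch signals, which fell (-0.51, SE 0.09, limma adjusted p = 0.0398). It measured 8.19 and 8.34 against controls from 8.55 to 8.96. The call was kept without replicate 2 of scrambled and lost without any other single array (-0.43 to -0.58, adjusted p from 0.0535 to 0.521), after centring on array medians (-0.48) and against scrambled alone (-0.41). With sh_84 none of the 119 passed by limma (14 at an unadjusted p under 0.05). Between sh_83 and sh_84 2 were lower, 1.68% against 1.19% of all genes.

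**Figure D4:**
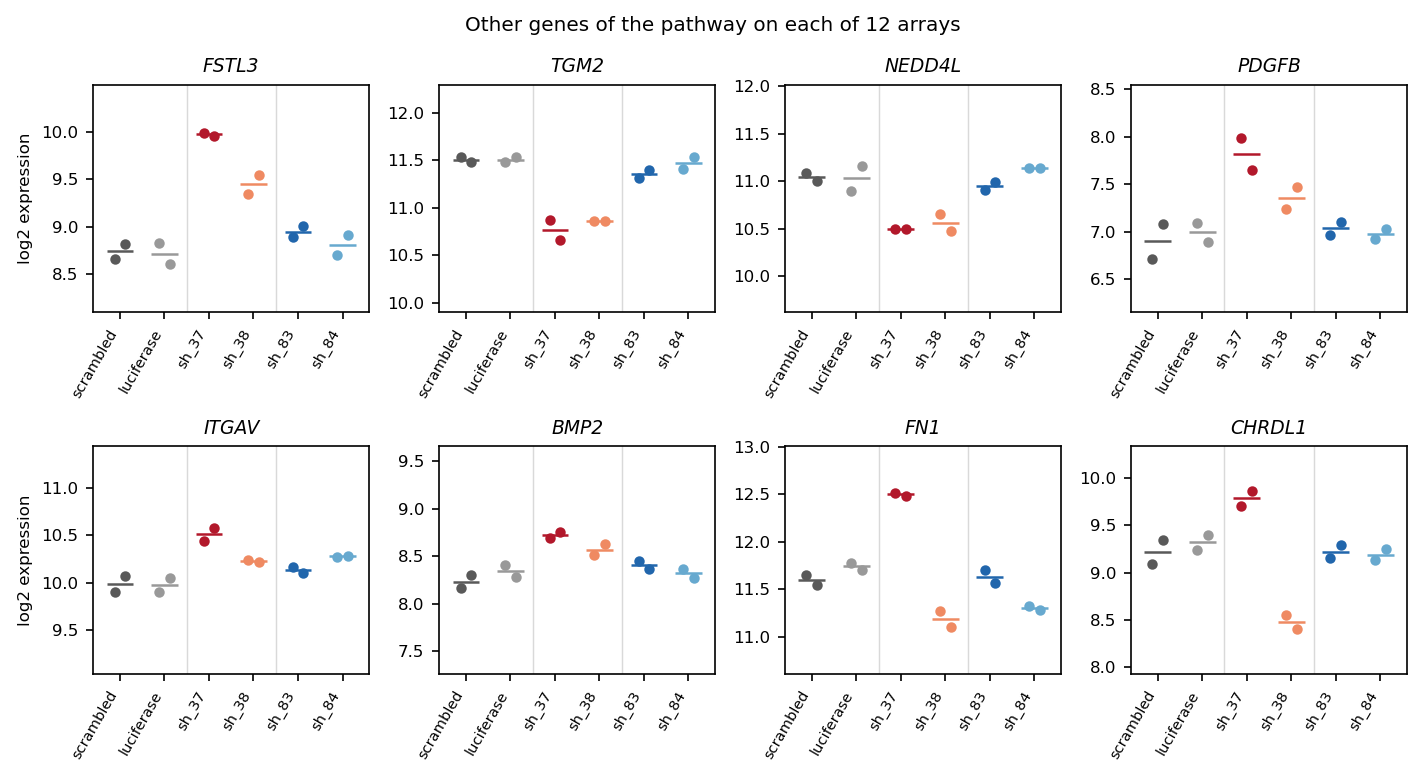
Log2 expression (y axis) of 8 further pathway genes on each array, by hairpin (x axis); points are arrays and lines the means of 2 arrays. The first 6 passed the test after H2AZ2 knockdown; FN1 and CHRDL1 lie above the controls with sh_37 and below them with sh_38.

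The genes whose levels tracked FST most closely over the 12 arrays were SLC1A4, a neutral amino acid transporter (Pearson r = 0.975), SCML1 (0.974), SLIT2, a secreted guidance cue (0.972), SLC7A1, a cationic amino acid transporter (0.969), and FANCI, a DNA repair protein (0.967). The most opposite were CYBRD1, an iron reductase (-0.978), NEFL, a neurofilament (-0.963), and COL5A1, a collagen chain (-0.956). These correlations describe 12 arrays that share hairpins and controls, and were the highest and lowest of all genes by choice. SLIT2 stood at -0.82 with sh_37, -0.50 with sh_38, -0.46 with sh_83 and 0.16 with sh_84, the same order as FST. Among the other 9 genes of the set r with FST ran from -0.75 for TGFBI to 0.51 for TGFBR2, and FSTL3 stood at -0.887.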

How the data were processed

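RNA of 12 samples was hybridised to Human Gene 1.0 ST arrays. The authors deposited log2 expression values per probe set, made by RMA (background correction, quantile normalization and summary of probes) per the submitters' processing notes; its version is not given in the sources used, nor is a genome build. Of 33297 probe sets, 19460 carried 1 gene symbol, 1754 several and 12083 none in the platform annotation; the brightest probe set stood for each of 18417 genes, and each of the 10 genes had 1. Precision is limited by the number of arrays.

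Differences were fitted with limma 3.58.1 (R 4.3.3): 6 hairpins of 2 arrays with a shared spread, and 3 targets of 4 arrays with the hairpin as a random block (correlation 0.157). Adjusted p-values are Benjamini-Hochberg over all 18417 genes, and a gene is called under 0.05. The code was tested on simulated data. Replicate 2 of sh_84 was grouped by its title, since another label names a different hairpin. The members and lists were chosen with earlier results of these data known. Genes were named by rule: the 10 genes, the targeted genes, and pathway genes called after H2AZ2 knockdown (up to 3 each way per role) or with sh_83. The 5 genes with the highest and the 3 with the most negative correlation with FST were named too. Others are marked in the text. Alternatives changed the controls, arrays, filter, normalization, block and moderation.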

Additional observations from a re-analysis of the deposited data

Results flagged for a closer look

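These results differed between hairpins against the same target by a direct test (limma, adjusted over all genes), sh_37 minus sh_38 for H2AZ2. TGFB2 differed by 1.021 (adjusted p = 0.00201), TGFBR2 by -1.131 (9.12e-05) and ID3 by 0.6 (0.0248). Of the other pathway genes FSTL3 differed by 0.527 (0.0234), and FN1 and CHRDL1 by 1.309 each (3.93e-05 and 0.000137). For the H2AZ1 hairpins, FST differed by -0.912 (sh_83 minus sh_84, adjusted p = 0.0255), beside H2AZ1 at 19.3% and 92.0% of control. Dixon's test named no array in 30 groups of 4 arrays. Each group joined both hairpins of a target, or both control hairpins. Where the hairpins differ, as for TGFBR2 with sh_37 and sh_38, the arrays split into pairs. The test can then hardly single out an array, and the groups cover few of the genes. It therefore does not show that all arrays are alike. Over all probe sets the scrambled replicates had r = 0.987 with each other.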

How the results depend on the processing

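Of 448 values of 23 single-gene tests under the alternatives, 381 kept their direction and side of the threshold, 62 lost the call, 5 gained one and 0 reversed. Most of these tests were of called genes, and some alternatives cannot change an estimate, so few reversals could occur. Among values of the 10 genes that were not called, 53 of 1058 changed sign under the alternatives, for differences of up to 0.225 in size. TGFB2 (0.97 to 1.07) and TGFBR2 (-1.18 to -1.08) between sh_37 and sh_38 kept their calls under all 18 alternatives, and TGM2 after H2AZ2 knockdown under all 21. For sh_83 minus controls, the count of the 10 genes called was 0 after centring on array medians and against scrambled or luciferase alone, and 0 to 1 without 1 array. For sh_83 minus sh_84 it was 2 (FST and INHBA) without the dimmest 25% of genes, after renewed quantile normalization and with trended, robust moderation, and 0 to 1 without 1 array; between sh_37 and sh_38 it was 2 to 3 without 1 array. Of the 119 other pathway genes, the count for H2AZ2 minus controls was 1 against scrambled alone, 2 against luciferase alone and 2 to 9 without 1 array. It was 12 to 21 for sh_37 and 2 to 14 for sh_38 without 1 array. For sh_83 it was 0 after centring and against scrambled alone, 3 with trended, robust moderation and 0 to 1 without 1 array; for sh_84 it was 3 (FN1, RUNX2 and TGFBR1) with that moderation. The cause of these changes was not tested. Where an array was left out, the lone array of its hairpin was assumed to vary like the others.

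Arrays with the same replicate number deviated together in part of the comparisons: r between hairpins was above 0.1 in 9 of 15 pairs (median 0.145, from -0.469 to 0.677). As this did not hold for every pair, and the labels name no shared batch, the numbers were not used as pairs. With the replicate block, the calls over all genes for H2AZ2 minus controls went from 609 to 445. For sh_83 minus sh_84 they went from 219 to 343, and 2 of the 10 genes (FST and INHBA) were called there. For sh_84 minus controls they went from 65 to 113, and 0 of the 10 genes were called. Without the hairpin as a block, H2AZ2 minus controls gave 957 calls.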

Other observations

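IL11, a cytokine, and NOX4, an oxidase, both TGF-beta targets in many cells, were the pathway genes called lower with sh_83 than with sh_84; they were singled out after their values were seen. IL11 measured 9.13 and 9.40 with sh_83 and 10.00 on both arrays of sh_84 (log2 difference -0.73, SE 0.10, limma adjusted p = 0.00781), against controls from 9.61 to 9.72. NOX4 measured 9.08 and 9.36 with sh_83 and 9.85 and 10.02 with sh_84 (-0.71, SE 0.13, limma adjusted p = 0.0244), against controls from 9.62 to 9.92. Against control, sh_83 was lower by -0.40 for IL11 (adjusted p = 0.093) and -0.52 for NOX4 (adjusted p = 0.0741), which did not pass. Both genes fell with sh_37 (IL11 -0.81, adjusted p = 0.000245; NOX4 -0.94, adjusted p = 0.000298, limma).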
